A study of Mus musculus with 8 samples.

Results

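The genes described here are Lin28a and Lin28b and 8 transcripts known as targets of the let-7 microRNAs, namely Hmga1, Hmga2, Igf2bp1, Igf2bp2, Igf2bp3, Trim71, Arid3b and Plagl2. They were chosen by gene symbol, and all 10 were found among the 24279 genes of the deposited comparison tables. RNA had been sequenced from mouse embryonic stem cells, cultured cells of the early embryo, after LIF (leukemia inhibitory factor), which holds them undifferentiated, had been withdrawn for 6 days. The 8 libraries form 4 groups of 2. By genotype, noDox is labelled AGO1-4-/-, DOX is AGO1-4-/- with AGO2 alone expressed under doxycycline, NLS is AGO1-4-/- with NLS-AGO2 alone, and E14 is WT. All groups carry the same cell description, an inducible HA-Flag-AGO2 line at passages 8 to 15, and the same protocol text with 2.5 µg/ml doxycycline, noDox and E14 included. The labels do not say whether a line was a single clone or whether the libraries of a group came from separate cultures.

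The let-7 microRNAs share 1 seed, the bases through which an Argonaute protein pairs them with target transcripts, and they lower the levels of genes of the embryonic state. LIN28A and LIN28B are RNA-binding proteins that hold the loop of let-7 precursors and block their maturation, and their own transcripts carry let-7 sites, so the microRNA and the protein restrain each other. In undifferentiated embryonic stem cells LIN28A is abundant and mature let-7 is scarce, and let-7 accumulates as cells differentiate.

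The 9 distinct mature let-7 sequences of the family taken from RefSeq (build GRCm38.p6), found at 11 loci, have the same seed at bases 2 to 8. The hairpin of Mirlet7a-2 also holds the let-7a sequence but is not counted among these loci. Some of them are shown because the seed defines every site described here, with the seed in capitals.
mmu-let-7a-5p: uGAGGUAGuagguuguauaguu
mmu-let-7d-5p: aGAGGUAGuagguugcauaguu
mmu-let-7f-5p: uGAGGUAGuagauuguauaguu
mmu-let-7g-5p: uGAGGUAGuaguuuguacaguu
mmu-miR-98-5p: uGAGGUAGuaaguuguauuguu

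The DNA letters that pair with this seed are CTACCTC, and with an A after them they form the 8-base site CTACCTCA. In the longest annotated 3′ UTR of each gene (GENCODE M21, build GRCm38, which is mm10), read on the transcript strand, 7 of the 10 genes held at least 1 8-base site, against 642 of 21007 genes with a 3′ UTR (3.06%). All 10 held at least 1 CTACCTC, against 1895 genes (9.02%). The genes were picked as known let-7 targets, so this is a description of them and not a test. Trim71 held 4 8-base sites, Igf2bp1 3, Lin28a 2, and Lin28b, Hmga2, Igf2bp2 and Igf2bp3 1 each. Hmga1, Arid3b and Plagl2 held a single CTACCTC without the final A. Arid3b had 4 further TACCTCA matches, a weaker kind of site that overlaps the 8-base site by its last 7 letters. Sites of the transcripts on which the results below turn are shown with 22 bases before them, the part of the target that faces the 3′ end of the microRNA, and with the 8-base site in capitals. For Igf2bp1 and Trim71 only the site nearest the stop codon is shown. All sites shown lie on the minus strand.
Lin28a, chr4:134005189-134005218: ttggagtgcacagcctgttgaaCTACCTCA
Lin28a, chr4:134004551-134004580: atgctttgagatcgccacaaacCTACCTCA
Lin28b, chr10:45381022-45381051: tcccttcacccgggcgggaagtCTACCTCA
Hmga2, chr10:120364224-120364253: agggggcgccgacattcaatttCTACCTCA
Igf2bp1, chr11:95961778-95961807: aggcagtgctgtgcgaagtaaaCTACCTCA
Igf2bp2, chr16:22059473-22059502: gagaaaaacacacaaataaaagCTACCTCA
Igf2bp3, chr6:49086787-49086816: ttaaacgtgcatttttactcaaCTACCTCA
Trim71, chr9:114512472-114512501: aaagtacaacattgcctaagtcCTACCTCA

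Of the 13 8-base sites in these genes, 11 lay inside the gene interval of the deposited tables. The 2 distal sites of Trim71, 3591 and 3617 bases after the stop codon, lay outside it, so reads over that end of the transcript need not have counted for Trim71.

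**Figure D1:**
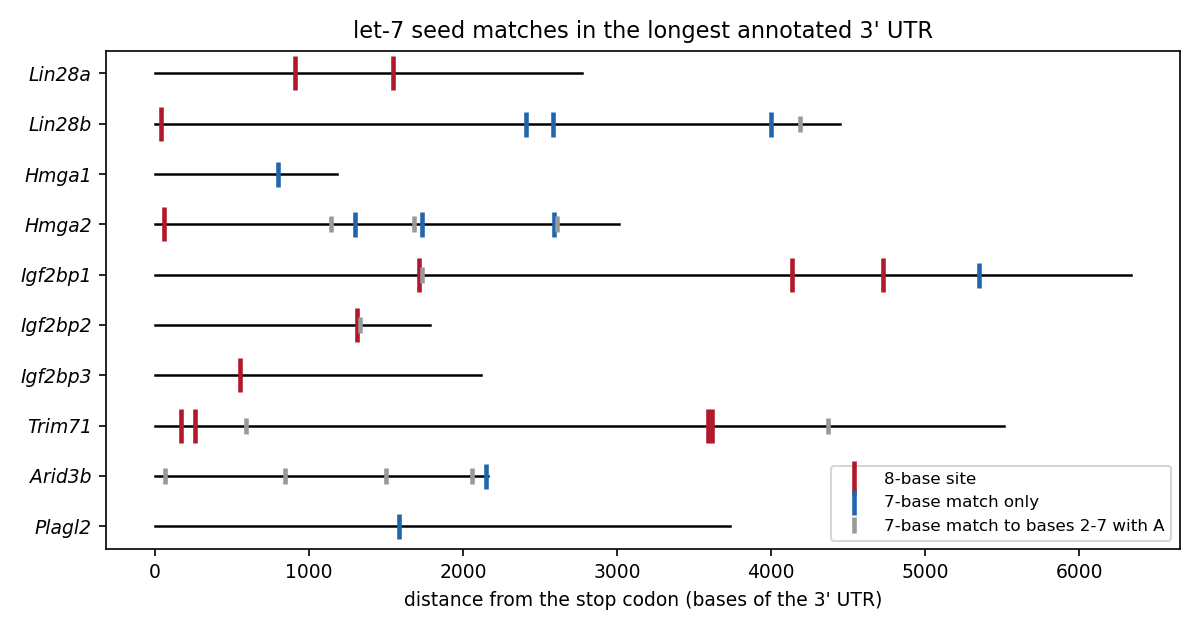
Positions of let-7 seed matches in the longest annotated 3′ UTR of each of the 10 genes. The x axis is the distance from the stop codon in bases, black lines span the UTR, and ticks mark the 3 kinds of match. Trim71 has 4 8-base sites and Hmga1 and Plagl2 have 1 short match each.

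Each deposited table gives a single RPKM per group (reads scaled to transcript length and library size), pooled over 2 libraries, with the authors' Cuffdiff statistic, p and q against noDox. The error quoted with a log2 fold is the standard error (SE) that this statistic implies, and the spread between libraries cannot be given. A gene is said to have risen or fallen only at q < 0.05 in the authors' deposited table. The tables named for DOX and for E14 were identical in 24279 of 24279 lines, so their single set of values is called DOX/E14. Ago1 RNA measured 0.0159 RPKM for noDox against 16.7 for DOX/E14 and 0.861 for NLS. The Ago1 difference did not pass or was not tested but goes against the DOX label for the shared table. Ago2 RNA was present in all 3 (26.1, 32.6 and 35.7 RPKM) and did not pass. Ago3 was the only Argonaute called, and in DOX/E14 it went the opposite way to Ago1. Ago3 fell there with a log2 fold of −1.33 (SE 0.292) and rose in NLS with a log2 fold of 0.904 (SE 0.318). Ago4 RNA was low (0.316, 0.0798 and 0.205 RPKM) and was not tested. Ddx3y, a Y-linked gene chosen after its values were seen, had 0 RPKM for noDox, 11.1 for DOX/E14 and 0.311 for NLS. The differences described here therefore cannot be told apart from other differences between the lines. In RNA from whole cultures, fewer cells of a type and less RNA per cell cannot be told apart either. Depth is unknown, because neither counts nor the worth of 1 read could be read from the values.

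Against noDox, 8 of the 10 genes rose in DOX/E14, 1 fell and 1 did not pass, where 55.5% of all tested genes were called, 27.2% as rises and 28.3% as falls. For NLS, 1 gene rose, 2 fell and 7 did not pass, where 8.36% of all tested genes were called, 3.97% as rises and 4.39% as falls. The median log2 fold of the 10 genes was 1.08 for DOX/E14 and 0.28 for NLS, beside 0.0075 and −0.0077 over all tested genes. In 7 of the 10 genes the NLS fold lay on the same side of noDox as the DOX/E14 fold and was the smaller of the pair. Both comparisons use the same noDox libraries, so a shared direction is no independent support.

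**Figure D2:**
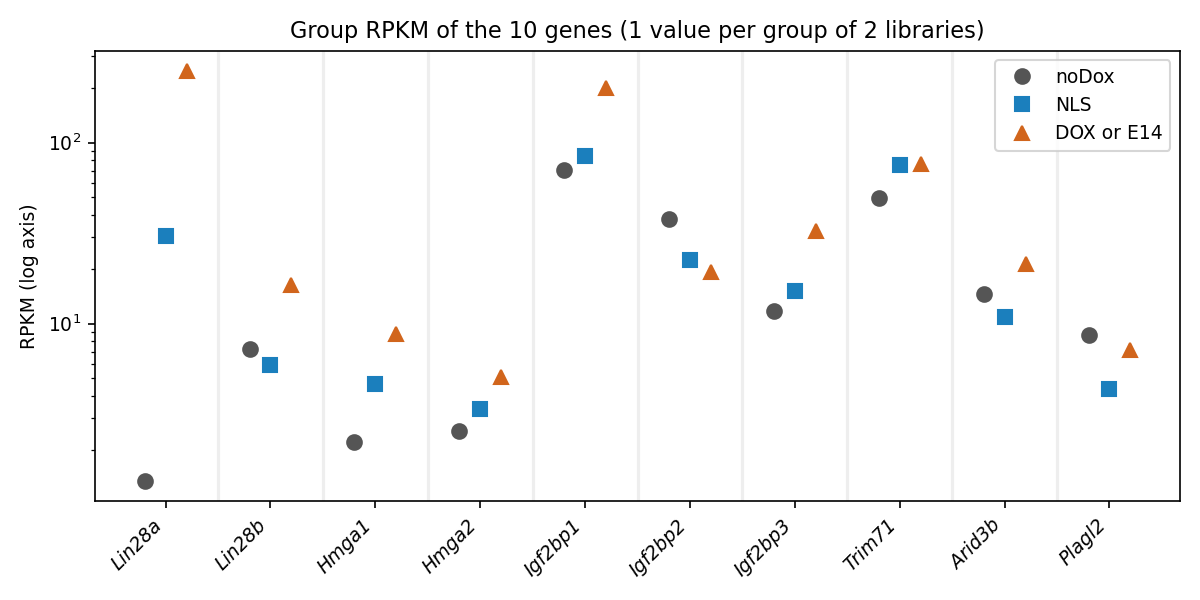
RPKM on a log axis for the 10 genes, with 1 point per group (circle noDox of the first table, square NLS, triangle DOX/E14). Lin28a spans the widest range, from 1.35 RPKM in noDox through 30.5 in NLS to 248 in DOX/E14. Igf2bp2 and Plagl2 are highest in noDox, at 37.7 and 8.68 RPKM.

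Lin28a (chromosome 4, 134003330 to 134018841, minus strand) was at 1.35 RPKM in noDox and 248 RPKM in DOX/E14, a 183-fold rise. Its log2 fold of 7.52 (SE 0.39) ranked 2 among the 3335 genes that rose with at least 1 RPKM in that group and a value above 0 in noDox. The table for NLS gave 1.39 RPKM for noDox and 30.5 RPKM for NLS, a 21.9-fold rise with a log2 fold of 4.45 (SE 0.50), and this ranked 1 among 506 genes by the same conditions. Genes at 0 in noDox have no finite fold and were not ranked. In both tables q was the lowest the table holds (0.00017 and 0.00191 in the authors' deposited tables). Among all listed genes Lin28a stood at percentile 52.5 by RPKM in noDox, 89.4 in NLS and 98.8 in DOX/E14. The transcript was thus low in noDox, intermediate in NLS and among the most abundant in DOX/E14. Gm13061 overlaps Lin28a on the opposite strand, and whether the counting used strand is not given in the sources used here.

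The NLS fold of Lin28a was smaller than the DOX/E14 fold by a log2 difference of −3.06 (SE 0.63, 95% interval −4.30 to −1.82). This passed a z test of the difference built on the authors' statistics and adjusted over 11907 genes (adjusted p = 5.15e-05). The test called 13% of all genes, 3.18% with the NLS fold below and 9.78% with it above. Among the 10 genes it called 3 below, 0 above and 7 not at all, and a difference that missed the threshold is not shown to be absent. The same difference had an adjusted p of 0.305 when the SE was taken from the authors' p instead. The p of Lin28a is at the lowest value of both tables, 5e-05, so the SE it gives is too large by construction.

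Lin28b (chromosome 10, 45376620 to 45486395, minus strand), the paralogue expressed in the fetus and in many tumours, moved far less. It was at 7.21 RPKM in noDox and 16.4 in DOX/E14, a rise with a log2 fold of 1.19 (SE 0.27, q = 0.00017 in the authors' deposited table). Set against NLS, the values were 7.40 and 5.89 RPKM, a log2 fold of −0.33 (SE 0.36) that did not pass (q = 0.481 in the authors' deposited table). The NLS fold was the lower by −1.52 (SE 0.45), and the z test of that difference gave an adjusted p of 0.0096.

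The balance of the LIN28 transcripts differed between the groups, since RPKM is scaled per length and can be set side by side. Lin28a made up 15.8% of the summed LIN28 RPKM for noDox, 83.8% in NLS and 93.8% in DOX/E14. In noDox Lin28b was 5.33 times as high as Lin28a, whereas Lin28a was 5.18 times as high as Lin28b in NLS and 15.1 times in DOX/E14. Against noDox, the log2 ratio of Lin28a to Lin28b shifted by 6.33 (SE 0.47) in DOX/E14 and by 4.79 (SE 0.61) in NLS, with SEs that join the implied SEs of both genes. The order of the paralogues was thus turned around in both groups relative to noDox.

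The genes next to Lin28a, looked at after its values were seen, gave no rise of its size. Dhdds, the nearest at 2466 bases, encodes a subunit of the enzyme that makes dolichol and had 8.64 RPKM for noDox, 8.75 for DOX/E14 and 9.35 for NLS, with log2 folds of 0.02 (SE 0.30) and 0.08 (SE 0.37) that did not pass. Within 100 kb, Hmgn2, a nucleosome-binding protein gene, rose from 3.95 to 7.40 RPKM and Ubxn11 fell from 8.73 to 1.15 RPKM in DOX/E14. Aim1l rose in NLS from 1.40 to 3.45 RPKM. Cd52 was at 0.372 RPKM or below in noDox and at 0 in DOX/E14, was not tested in DOX/E14 and did not pass in NLS.

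The genes whose pair of log2 folds lay nearest to that of Lin28a, by Euclidean distance over the 2 tables among 11094 genes, were Vrtn (distance 0.36 log2 units), Tcf15 (0.85), Pou3f1 (0.85), Phlda2 (0.91) and Cdkn1c (0.93). They were much lower than Lin28a in noDox, between 0.0726 and 0.504 RPKM, and reached 15.5 to 78.2 RPKM in DOX/E14 and 1.53 to 6.16 RPKM in NLS. In DOX/E14 Pou3f1, a POU factor of the epiblast, Phlda2 and Cdkn1c, imprinted genes that limit growth, rose, and Vrtn and Tcf15 did not pass. None of the 5 passed in NLS, with q from 0.0747 to 0.546 in the authors' deposited table, where Lin28a did. Likeness over 3 group values is coarse.

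The HMGA proteins bind AT-rich DNA and change chromatin shape, and Hmga2 is the best studied let-7 target. Hmga2 (chromosome 10, 120361275 to 120476469) was at 2.56 RPKM in noDox and 5.04 in DOX/E14, a rise with a log2 fold of 0.98 (SE 0.35, q = 0.00075 in the authors' deposited table). With NLS the pair of values was 2.63 and 3.36 RPKM, and the log2 fold of 0.35 (SE 0.49) did not pass. Its level was low in all 3 groups, between percentiles 57.6 and 66.0 of all listed genes.

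Hmga1 (chromosome 17, 27556497 to 27563674) was at 2.22 RPKM in noDox and 8.72 in DOX/E14, a rise with a log2 fold of 1.97 and a wide SE of 0.89 (q = 0.00343 in the authors' deposited table). With NLS the pair of values was 2.28 and 4.64 RPKM, with a log2 fold of 1.02 (SE 1.02) that did not pass. The SE of Hmga1 was the widest of the 10 genes in both comparisons.

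The IGF2BP proteins bind and stabilise messenger RNAs, that of Igf2 among them, and are largely fetal. Igf2bp1 (chromosome 11, 95957163 to 96005940) was the most abundant in noDox among the 10 genes, at 70.2 RPKM, and rose to 201 RPKM in DOX/E14 (log2 fold 1.52, SE 0.30). With NLS the pair of values was 72.0 and 84.3 RPKM, a log2 fold of 0.23 (SE 0.31) that did not pass. The difference between the folds was −1.29 (SE 0.44) with an adjusted z test p of 0.0296. Igf2bp3 (chromosome 6, 49085223 to 49214957) was at 11.8 RPKM in noDox and 32.4 in DOX/E14, a rise with a log2 fold of 1.46 (SE 0.27). Its NLS comparison read 12.1 and 15.1 RPKM, and the log2 fold of 0.32 (SE 0.33) did not pass. Its difference of −1.14 (SE 0.42, 95% interval −1.97 to −0.31) had an adjusted z test p of 0.054, and of 0.0409 with the SE taken from the deposited p.

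Igf2bp2 (chromosome 16, 22059009 to 22163299) went the other way and was the only one of the 10 to fall in both tables. It was at 37.7 RPKM in noDox and 19.2 in DOX/E14, falling with a log2 fold of −0.97 (SE 0.26). Its NLS comparison read 38.7 and 22.4 RPKM, a fall with a log2 fold of −0.79 (SE 0.31), at q = 0.00679 per the authors' deposited table. The folds of Igf2bp2 in the tables differed by 0.18 (95% interval −0.61 to 0.97), which did not pass the z test.

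Igf2bp2 made up 31.5% of the summed IGF2BP RPKM for noDox, 18.4% in NLS and 7.59% in DOX/E14. Igf2bp1 made up 58.7%, 69.2% and 79.6% in the same order, and Igf2bp3 9.83%, 12.4% and 12.8%. The log2 ratio of Igf2bp1 to Igf2bp2 shifted by 2.49 (SE 0.40) in DOX/E14 and by 1.02 (SE 0.44) in NLS. That of Igf2bp1 to Igf2bp3 shifted by 0.06 (95% interval −0.74 to 0.85) and −0.10 (95% interval −0.99 to 0.79). Igf2bp2 and Igf2bp3 each have 1 8-base site, printed above, and Igf2bp1 has 3, of which the one nearest the stop codon is printed.

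**Figure D3:**
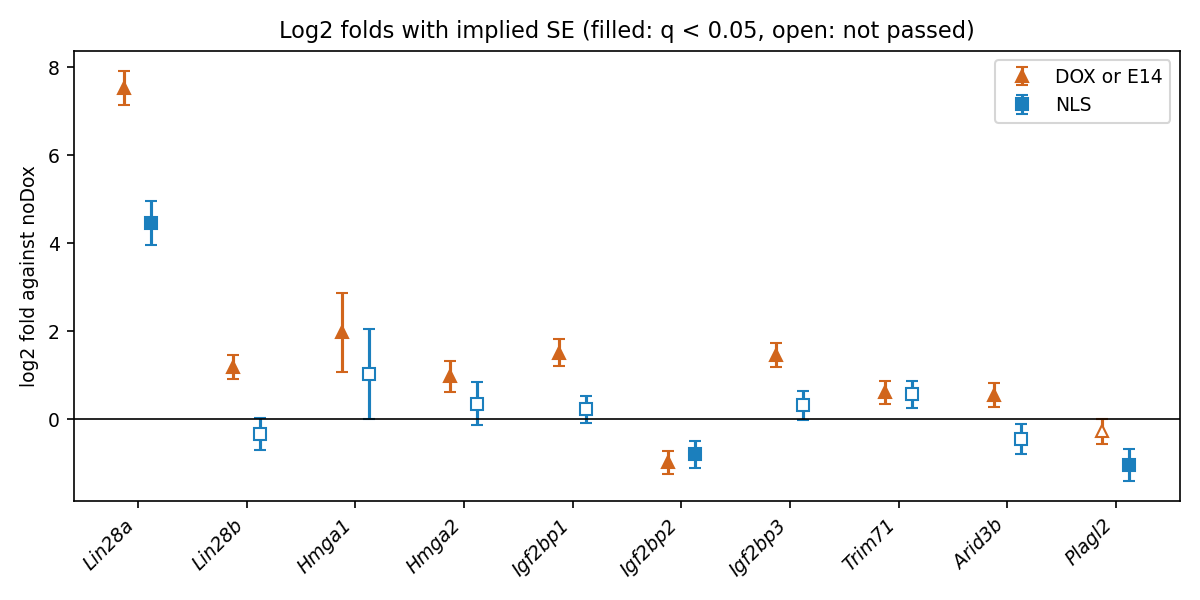
Log2 folds against noDox for the 10 genes, with bars of 1 implied SE (triangles DOX/E14 table, squares NLS table, filled where q < 0.05). Lin28a stands highest in both tables at 7.52 and 4.45, and Igf2bp2 and Plagl2 lie below 0 in both.

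Trim71 (chromosome 9, 114507133 to 114564369) encodes a ubiquitin ligase and mRNA repressor that is the mouse counterpart of the worm let-7 target lin-41. It was at 49.7 RPKM in noDox and 76.3 in DOX/E14, a rise with a log2 fold of 0.62 (SE 0.26), at q = 0.00215 per the authors' deposited table. Its NLS comparison read 51.0 and 75.7 RPKM, a log2 fold of 0.57 (SE 0.30) that did not pass, with q = 0.0700 in the authors' deposited table. The estimates were close, with a difference of −0.05 (95% interval −0.82 to 0.73), although only one of them passed. Trim71 has the most 8-base sites of the 10 genes, and among all genes only Mcf2l with 7 and Trim6 with 5 have more.

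Arid3b (chromosome 9, 57790353 to 57836793), an AT-rich DNA-binding factor, was at 14.5 RPKM in noDox and 21.4 in DOX/E14, a rise with a log2 fold of 0.56 (SE 0.27, q = 0.00585 in the authors' deposited table). Its NLS comparison read 14.9 and 10.9 RPKM, a log2 fold of −0.45 (SE 0.34) that did not pass. The estimates pointed in opposite directions, but their difference of −1.01 (SE 0.43, 95% interval −1.85 to −0.16) did not pass the z test on the authors' statistics (adjusted p = 0.109). With the SE taken from the authors' p it did (adjusted p = 0.0113).

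Plagl2 (chromosome 2, 153227759 to 153241426), a zinc finger factor related to Plagl1, was the only one of the 10 without a call in DOX/E14. It was at 8.68 RPKM in noDox and 7.18 in DOX/E14, a log2 fold of −0.27 (SE 0.28). In NLS it fell from 8.91 to 4.37 RPKM with a log2 fold of −1.03 (SE 0.36, q = 0.00342 per the authors' deposited table). The difference between its folds, −0.75 (95% interval −1.66 to 0.15), did not pass the z test. The falls in NLS were thus those of Igf2bp2 and Plagl2, and the 1 rise was that of Lin28a.

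Other transcripts reported as let-7 targets, 30 genes listed from general knowledge and with earlier results of these data known, were mixed. In DOX/E14 13 of 27 tested genes rose and 4 fell, beside 27.2% rises and 28.3% falls among all tested genes, with a median log2 fold of 0.38. In NLS 3 of 27 rose and 0 fell, beside 3.97% and 4.39% of all tested genes, with a median of 0.18. Of the 12 cell cycle and oncogene entries, 9 rose in DOX/E14, 0 fell and 3 did not pass. The growth factor signalling entries gave 0 rises and 2 falls among 5 tested genes, and no difference between these subgroups was tested.

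Myc, the growth-promoting transcription factor, rose from 2.16 to 30.9 RPKM in DOX/E14 (log2 fold 3.84, SE 0.38) and was at 2.22 and 3.83 RPKM in NLS (log2 fold 0.79, SE 0.56), which did not pass. Gatm, an enzyme of creatine synthesis, rose from 0.396 to 3.17 RPKM in DOX/E14, the cyclin gene Ccnd1 from 23.0 to 73.2 and the RAS gene Nras from 16.3 to 47.7 RPKM. In NLS these 3 did not pass. The falls in DOX/E14 were those of Onecut2, a homeobox factor, from 1.87 to 0.363 RPKM, the kinase gene Map4k3 from 26.8 to 7.60, the receptor gene Tgfbr1 from 16.2 to 8.80 and Igf1r, the insulin-like growth factor receptor, from 12.7 to 7.07 RPKM.

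The 3 rises in NLS were those of the cyclin gene Ccnd2 from 2.08 to 7.37 RPKM (log2 fold 1.82, SE 0.41), Thbs1, a matrix glycoprotein, from 34.7 to 66.2 RPKM (log2 fold 0.93, SE 0.30), and Igf1r from 13.1 to 20.2 RPKM (log2 fold 0.63, SE 0.30). Igf1r thus fell in one table and rose in the other, and the z test of its difference of 1.48 (SE 0.39) gave an adjusted p of 0.0031. By the same test on the authors' statistics, the differences of Myc (−3.05, SE 0.67, adjusted p = 0.00019), Onecut2 (2.25, SE 0.55, adjusted p = 0.00092), Map4k3 (1.45, SE 0.41, adjusted p = 0.0069) and Ccnd1 (−1.10, SE 0.40, adjusted p = 0.0463) passed as well. The rest of the 27 tested targets did not pass it, and the test called 13% of all genes.

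Genes that make, tail and destroy let-7 precursors were listed in the same way. Of 13 tested, 3 rose and 3 fell in DOX/E14, so that 6 were called where 55.5% of all tested genes were. In NLS 0 rose and 1 fell, where 3.97% of all tested genes rose and 4.39% fell. The falls are described first. Trim25, a ubiquitin ligase reported as a cofactor of LIN28A in uridylation, fell from 41.8 to 18.6 RPKM (log2 fold −1.17, SE 0.26). Zcchc6, a terminal uridylyl transferase also called TUT7, fell from 11.3 to 6.14 RPKM (log2 fold −0.87, SE 0.29). Dis3l2, the exonuclease that degrades uridylated pre-let-7, fell from 12.8 to 7.40 RPKM in DOX/E14 (log2 fold −0.79, SE 0.30) and from 13.2 to 6.67 RPKM in NLS (log2 fold −0.98, SE 0.37). Zcchc11, Dicer1 and Drosha are named for their roles, after their values were seen. Zcchc11, or TUT4, the enzyme that LIN28A recruits, did not pass in either table (12.1 RPKM in noDox and 15.1 in DOX/E14, 12.4 and 18.4 RPKM in NLS).

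The rises were those of Tarbp2, a partner of Dicer, from 10.8 to 24.9 RPKM, Hnrnpa1, which binds microRNA loops, from 64.0 to 138 RPKM, and Xpo5, the exporter of precursors, from 39.0 to 71.1 RPKM. Dicer1, itself a reported let-7 target, was at 25.1 RPKM in noDox and 23.9 in DOX/E14, and Drosha at 66.9 and 74.4 RPKM, and neither passed. In NLS these 5 did not pass. The z test on the authors' statistics called Trim25 (1.21, SE 0.39, adjusted p = 0.0222) and no other of the 13 processing genes, where it called 13% of all genes.

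**Figure D4:**
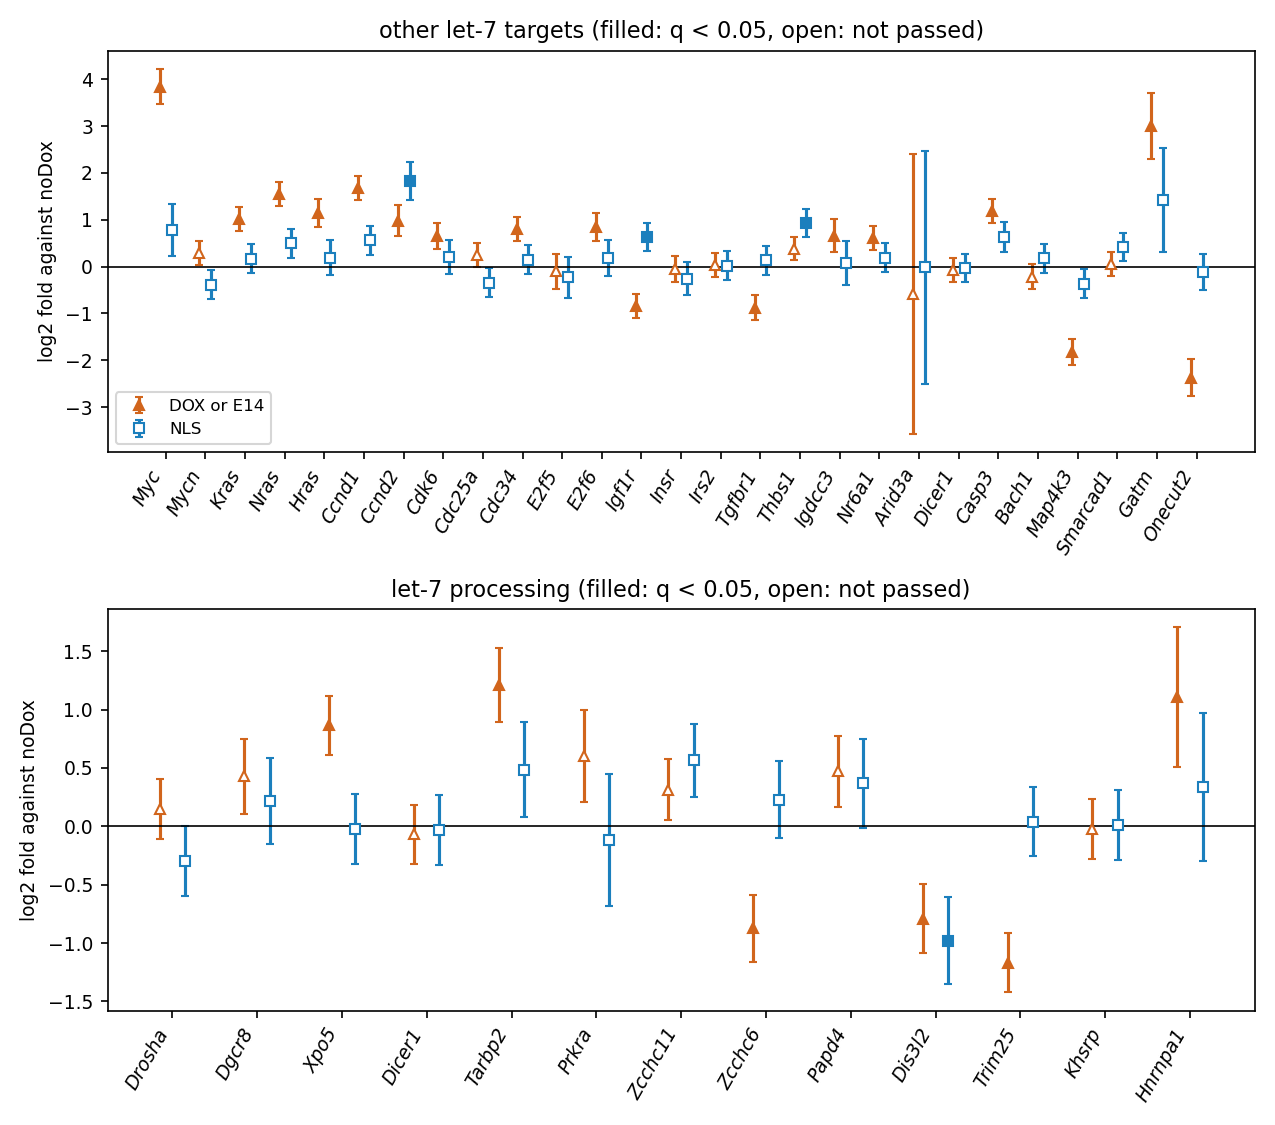
Log2 folds against noDox with bars of 1 implied SE for the tested genes of the list of other let-7 targets (top) and of the list of let-7 processing (bottom), with triangles for DOX/E14 and squares for NLS, filled where q < 0.05. Myc is highest at 3.84, Igf1r lies on opposite sides of 0 in the tables, and Dis3l2 is the one processing gene below 0 with a filled symbol in both.

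The let-7 loci themselves gave few values in these libraries. Of 12 listed loci, 8 were at 0 RPKM in all groups and no locus was called in either table. Mirlet7f-1 had 0 RPKM for noDox, 83.7 for DOX/E14 and 45.7 for NLS, Mirlet7d had 0, 21.02 and 32.7 RPKM, and Mir98 had 0, 24.6 and 79.3 RPKM. Mirlet7g was at 56.4 RPKM in noDox and at 0 in both other groups. Genes of this size give a large RPKM from few reads, and a value at such a locus can come from the longer transcript around it, so these values say nothing of mature let-7, which was not measured.

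The precursors of these 4 loci are shown because their loops are what LIN28 proteins bind, with the letters GGAG in capitals where they lie between the mature strands. GGAG, searched on the transcript strand, is the motif held by the zinc knuckles of LIN28, and 9 of the 12 hairpins in the RefSeq table (GRCm38.p6) have it there. The miR-98 hairpin does not.
Mirlet7g: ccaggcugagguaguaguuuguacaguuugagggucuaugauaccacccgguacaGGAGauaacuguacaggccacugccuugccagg
Mirlet7d: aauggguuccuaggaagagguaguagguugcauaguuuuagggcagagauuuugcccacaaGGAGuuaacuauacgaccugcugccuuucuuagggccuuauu
Mirlet7f-1: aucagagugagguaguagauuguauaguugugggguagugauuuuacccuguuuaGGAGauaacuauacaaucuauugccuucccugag
Mir98: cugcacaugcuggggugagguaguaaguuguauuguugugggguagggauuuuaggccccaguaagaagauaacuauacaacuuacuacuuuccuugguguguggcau

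Across all tested genes, those with an 8-base let-7 site had medians close to those of genes with no let-7 match. In DOX/E14 the median log2 fold was 0.09 over 417 genes with a site and 0.02 over 9262 genes without a match. Of the genes with a site 33.1% rose and 29.02% fell, against 28.4% rises and 29.1% falls of the genes without a match. For NLS the medians were 0.04 over 431 genes and −0.02 over 9652 genes, with 6.50% rises and 3.02% falls against 3.72% and 4.84%. The genes with a site had longer 3′ UTRs (median 2564 bases against 968.5 in DOX/E14) and lower levels (median 9.07 against 11.8 RPKM), and the part of either in these values was not tested. These values are a description with no test. The 7 genes with an 8-base site described above are among them, and without these genes the median with a site was 0.07 in DOX/E14 and 0.03 in NLS.

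**Figure D5:**
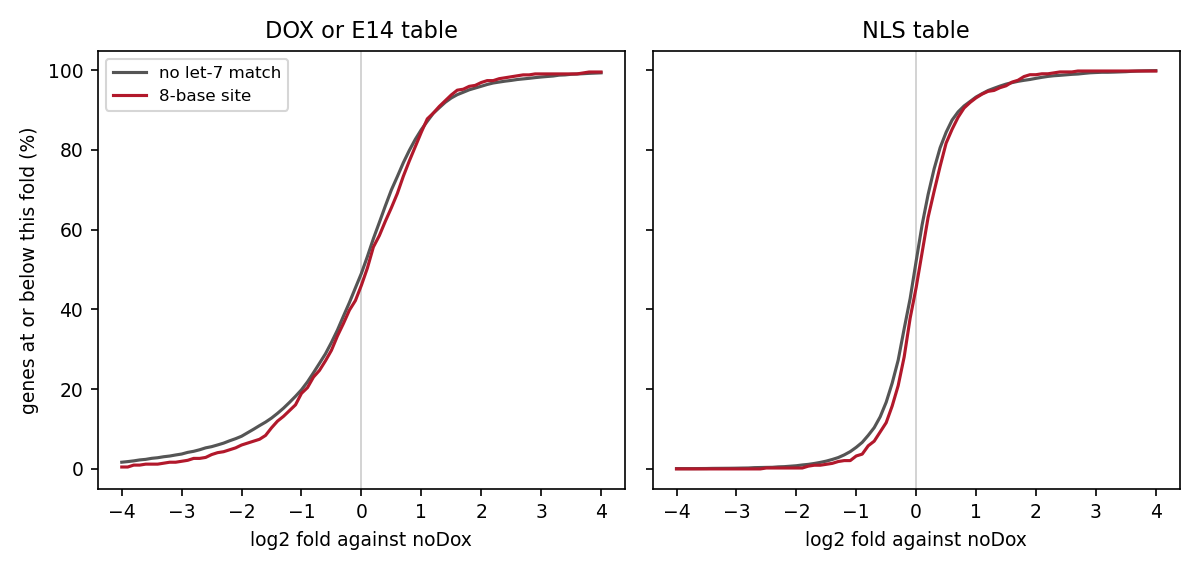
Cumulative share of tested genes (y axis, percent) at or below a given log2 fold against noDox (x axis), for genes with an 8-base let-7 site and genes with no let-7 match, in each table. The curves run close together, with medians of 0.09 against 0.02 in DOX/E14 and 0.04 against −0.02 in NLS.

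Factors reported to act with or upstream of Lin28a went different ways. Pou5f1, named after its values were seen, had 501 RPKM for noDox and 542 for DOX/E14 and did not pass, whereas Sox2 fell from 184 to 53.2 and Nanog from 431 to 69.3 RPKM, and Sall4, a zinc finger factor, rose from 89.5 to 128 RPKM. In NLS Pou5f1, Sox2 and Sall4 did not pass and Nanog, at 442 and 287 RPKM, was not tested. Of 7 markers of pluripotent cells, 4 fell and 1 rose in DOX/E14, beside 28.3% falls and 27.2% rises among all tested genes. In NLS 0 of 6 tested markers were called, where 8.36% of all tested genes were. The summed RPKM of these 7 markers was 4150 for noDox, 1734 in DOX/E14 and 3384 in NLS, so pluripotency transcripts were present in all 3. Dppa5a was the largest part of each sum (2555, 645 and 1939 RPKM in the same order). The 4 falls were those of Dppa5a, Nanog, Zfp42 and Esrrb. Utf1 went against the sum and rose from 116 to 207 RPKM. Tdgf1, with 104 and 131 RPKM, and Pou5f1 were also higher in DOX/E14 but did not pass. The summed RPKM of 3 neural progenitor markers was 3.65 for noDox, 26.9 in DOX/E14 and 5.28 in NLS, that of 3 mesoderm markers 2.31, 6.22 and 2.40, and that of 4 endoderm markers 1.93, 2.23 and 1.98. For 3 markers of feeder fibroblasts it was 0.613, 11.3 and 2.30 RPKM, with Col1a2 at 0 in noDox. The single markers did not all keep the order of their sums. Gata4 made up most of every endoderm sum but was highest for noDox (1.86 RPKM, against 1.58 for NLS), and it did not pass. The other endoderm markers, Sox17, Foxa2 and Gata6, were lowest for noDox and were not tested. Nes made up most of the neural sum and all 3 neural markers rose in DOX/E14, but Pax6 was lower in NLS (0.335 RPKM) than in noDox (0.438). The mesoderm sum was higher in DOX/E14 through T, at 0.0296 RPKM in noDox and 5.10 in DOX/E14, which did not pass, while Kdr fell from 1.59 to 0.12 RPKM. Of the fibroblast markers Col1a1 made up most of the DOX/E14 sum with 7.79 RPKM and did not pass, Col1a2 rose, and Thy1 made up most of the sums in noDox and NLS and was higher in NLS (1.72 RPKM) than in DOX/E14 (1.04). The part of these markers in the level of Lin28a was not tested.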

How the data were processed

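The authors deposited 1 comparison table per group, made with bcl2fastq 2.17.1, TopHat and Cuffdiff on mm10, per the submitters' processing notes. RNA came from whole cells in TRIzol, with ribosomal RNA depleted, per the labels' protocols. Annotation, counting and use of strand are not given in the sources used here. Deposited RPKM values are pooled per group, per the file headers, and the signed test statistic (a score), p-value and q-value are the authors', per the file headers. The deposited summary of log2 folds was not used.

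Log2 folds were computed from RPKM with no pseudocount, and the SE is the absolute log2 fold over the absolute statistic. A z read back from the p-values has a median of 1.41 (DOX/E14) or 1.42 (NLS) statistics, so this SE is mostly the larger. Each table was scaled alone: noDox in the NLS table exceeded the other by a median factor of 1.03 (12066 genes). Folds of the tables were compared by a two-sided z test with summed squared SEs and Benjamini-Hochberg adjustment over 11907 genes. The variance of the shared noDox libraries is counted in both SEs although it cancels in the difference. This widens the SEs and intervals of the differences. A trial of this test on simulated data missed log2 differences of 1, so the test can overlook differences of about that size. Intervals are 95% and normal. Sites were searched in transcript sequences of GENCODE M21 with Python 3.11.15. Genes lying over or antisense to others are uncertain, as strand use is not stated. Among the 10 members, Lin28a, Hmga1, Hmga2, Igf2bp1, Igf2bp3, Trim71 and Arid3b overlap an annotated gene on the opposite strand. Named genes are the 10 members, up to 4 called genes per direction, table and list by absolute log2 fold, the let-7 loci, the Argonautes and the 5 genes nearest to Lin28a; all other genes named were chosen after their values were seen. Members and lists were chosen with earlier results of these data known. Some items are not reported here.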

Additional observations from a re-analysis of the deposited data

Results flagged for a closer look

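The NLS and DOX/E14 folds against noDox differed for 3 of the 10 genes by the z test of the difference, and all 3 were lower in NLS, where 3.18% of all genes were called in that direction. The log2 difference was −3.06 for Lin28a, −1.52 for Lin28b and −1.29 for Igf2bp1. The tables were scaled separately and share the noDox libraries.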

How the results depend on the processing

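At q < 0.01 the counts for the 10 genes stayed at 9 and 3 in the DOX/E14 and NLS tables. Asking also for a log2 change of 1 or more in size left 5 of the 10 genes, 9 other let-7 targets and 3 processing genes for DOX/E14. For NLS it left 2 of the 10 genes, 1 other target and 0 processing genes. The share of all tested genes that met these stricter rules is not given here, so the counts cannot be set against it. Bonferroni adjustment left 0 calls in every list and both tables, by construction, since the lowest p of 5e-05 times the number of tested genes exceeds the threshold. The z test called 3 genes, and 4 with the SE taken from the deposited p, where Lin28a was lost and Igf2bp3 and Arid3b were gained. The median log2 fold of genes with a CTACCTC match of 7 bases was −0.0077 for DOX/E14, against 0.09 with the 8-base site; the cause was not tested. Of 60 recomputed folds of the 10 genes under 3 scale alternatives, 58 stayed within 1 SE, 0 changed direction, and Lin28a moved to 6.73 and 3.72 with a pseudocount of 1. No library could be left out, because the tables give 1 value per group. No paired analysis was possible because the tables hold no values per library. The depth behind these values is unknown.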
